A study of Arabidopsis thaliana with 12 samples.

Results

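The pectin methylesterase genes of *Arabidopsis thaliana* were followed in ripening siliques, the pods that enclose the maturing seeds. They were taken from a list of 57 gene codes of the family. A gene was read where a probe set of the array stands for it alone, in the array's annotation or in the gene codes of the study's own list of changed genes. This held for 39 of the 57 genes, out of 14415 genes that could be read in this way, and each of the 39 had 1 such probe set. A further 4 listed genes lie in 2 probe sets that each stand for a pair of family members, and are given apart. The remaining 14 were not analysed here.

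Pectin methylesterases act in the cell wall, where they cut methyl groups off homogalacturonan, the main chain of pectin. The acid groups set free can bind calcium and stiffen the wall, or open the chain to polygalacturonases and pectate lyases that cut it. Inhibitor proteins bind the enzymes and block them. In seeds and pods the balance is known from the mucilage of the seed coat and the opening of the ripe pod, and in the male gametophyte from the growth of pollen tubes.

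RNA was hybridized to Affymetrix ATH1 arrays, 1 array per sample, with 3 samples each of the Landsberg *erecta* wild type (L*er*) and the reduced-dormancy mutants *rdo2-1*, *rdo3* and *hub1-2*, labelled rdo2, rdo3 and rdo4. By the methods, plants for transcript analysis grew on soil in long days. The labels of all samples give siliques at 18 to 19 days after pollination. *rdo2-1* carries a small deletion in the gene of the transcription elongation factor TFIIS, and *hub1-2* is a mutant of *HUB1*, the E3 ligase needed to attach ubiquitin to histone H2B. Both are in the L*er* background, which the paper gives for all *rdo* mutants of the screen that yielded them. The sources used here do not name the mutated gene of *rdo3*. The methods describe the replicates as biological and independent. They count 9 arrays and do not mention *rdo3*, so its growth and replicates are not described by name.

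The array values are linear intensities in arbitrary units, as GC-RMA gives them, and their median over all probe sets lay between 11.6 and 12.1 on the 12 arrays. *HUB1* (AT2G44950) read 180.5 ± 27.7 on the *hub1-2* arrays and 78.5 ± 9.73 on those of the wild type (SD, n = 3), so a transcript is present in the mutant and the label cannot be checked by it. The label of ripening siliques was checked on 3 lists of markers. All 4 seed maturation genes that could be named of 12 listed, and all 4 genes of the silique wall and its dehiscence zone of 10 listed, lay above the array median on all 12 arrays. Of 14 named pollen genes of 40 listed, 5 to 8 did so on a given array. All 4 seed genes and 2 of the silique wall genes are named only through the study's list of changed genes.

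Most of the family gave little signal in these siliques. Of the 39 genes, 17 passed the filter on low values and 22 did not. The filter ranked probe sets by their second-highest intensity, and the lowest value it kept was 7.51. The 22 genes left out had intensities between 2.67 and 7.82, and on no array did any of them exceed the array median. As the filter cuts below the array medians of 11.6 to 12.1, this follows largely from the filter. Nearest to the filter were AT5G07420 on its lower side, with a second-highest intensity of 7.39, and AT5G19730 on its upper side, with 8.8. Intensities below the array median were not shown to be above background.

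Of the 17 tested genes, 8 stayed above the array median on all 12 arrays, 8 did so on some arrays, and AT5G19730 on none. The highest mean intensities belonged to AT3G60730, AT2G45220 and AT2G36710. In L*er* they averaged 2117 ± 398, 789.6 ± 344 and 558 ± 114 (SD, n = 3). AT2G45220 encodes PME17, which is known from its induction in leaves infected by fungi. The lowest means among the tested genes were those of AT5G19730, at 6.33 to 9.25 over the 12 arrays, AT2G26450, at 5.4 to 13.6, and AT5G53370, at 7.11 to 12.2. Intensities of different probe sets also reflect how well each probe set binds, so they do not rank the genes by transcript amount.

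**Figure D1:**
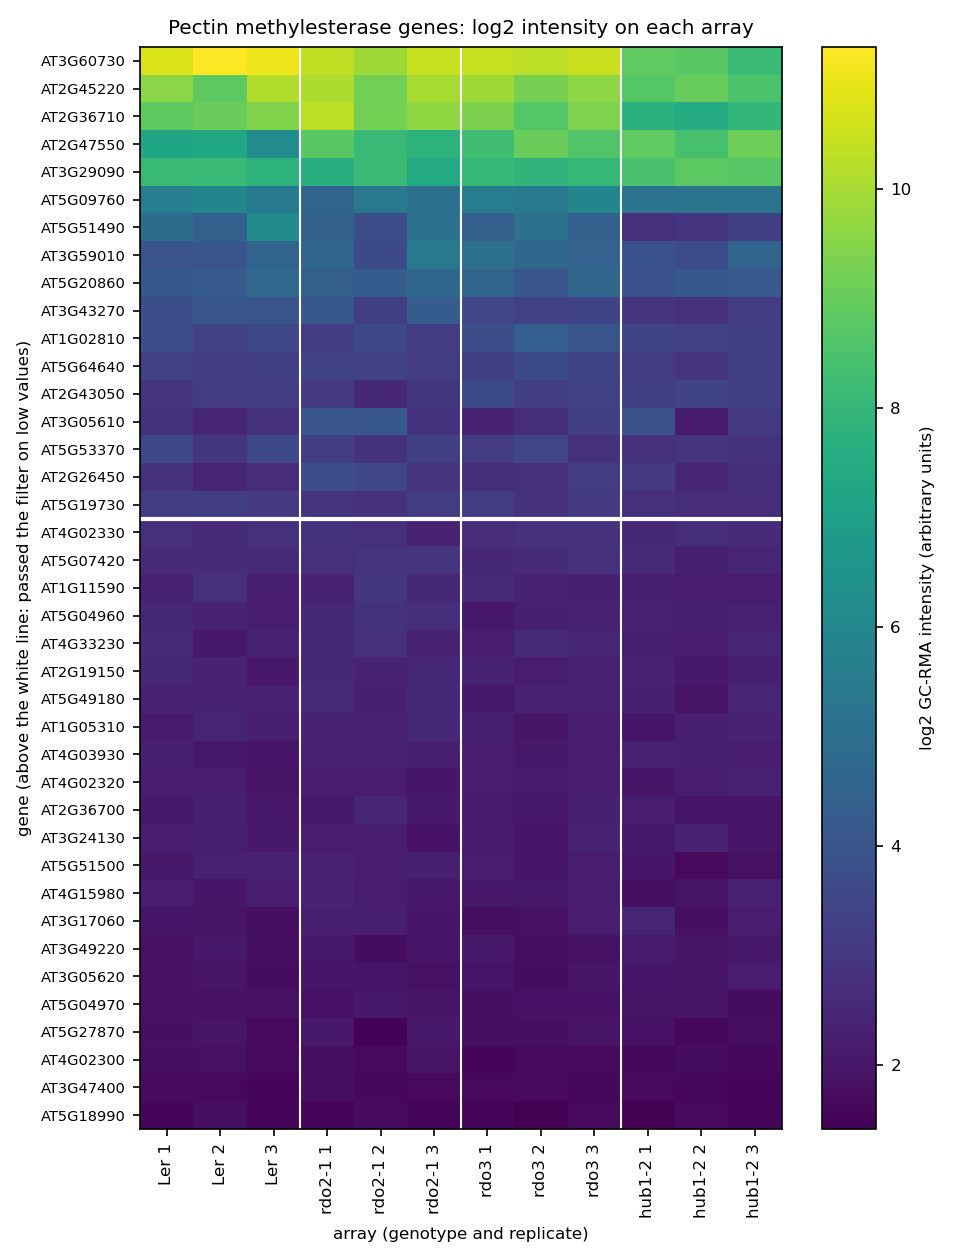
Log2 GC-RMA intensity (colour, arbitrary units) of the 39 pectin methylesterase genes (rows, by mean) on the 12 arrays (columns, by genotype and replicate). The 17 genes above the white line passed the filter on low values. The 22 genes below it had intensities between 2.67 and 7.82.

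Members of the family lie side by side on the chromosomes in 12 pairs of neighbouring genes, which take in 24 of the 57 genes. Both genes of a pair could be read in 5 pairs, and no pair had both genes above the filter. In 3 pairs 1 gene passed and its neighbour did not. AT2G36710 had intensities of 183 to 1266, while its neighbour AT2G36700 stayed at 3.9 to 5.55. AT5G51490 had 6.8 to 69.0 and its neighbour AT5G51500 had 3.2 to 5.02. AT3G05610 had 4.34 to 17.0 and AT3G05620 had 3.32 to 4.46. Binding of transcripts of related family members to the same probes was not tested.

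In *hub1-2* siliques, 4 of the 17 tested genes fell and 1 rose against L*er*. The genes that fell were AT3G60730, AT2G36710, AT5G51490 and AT3G43270, and AT2G47550 rose. The comparison asks which transcripts change when H2B ubiquitination is lost. Calls were made with limma at a Benjamini-Hochberg adjusted p under 0.01 over all probe sets that passed the filter, of which 9.45% were called, 5.53% higher and 3.92% lower. The median log2 fold change of the 17 genes was -0.31, beside 0.02 over all probe sets tested, and 12 of the 17 values were below 0. The median size of the change was 0.45 on the log2 scale, beside 0.26 over all. Siliques hold many cell types, so fewer cells of a type and less RNA per cell cannot be told apart.

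AT3G60730 had the highest intensity of the 4 genes that fell. It had 1726, 2522 and 2103 on the L*er* arrays, and 475, 432 and 283 on those of *hub1-2*. Every *hub1-2* value lay below every L*er* value, and the means were 5.34 times apart. The log2 fold change was -2.43 (SE 0.21, limma adjusted p = 0.00021).

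AT2G36710 had 458, 534 and 682 in L*er*, against 215, 183 and 246 in *hub1-2*. The groups did not overlap, and the gene fell by 1.37 on the log2 scale (SE 0.17, limma adjusted p = 0.0013). AT5G51490 had 30.0, 22.7 and 69.0 in L*er* and 6.8, 7.73 and 9.72 in *hub1-2*. All 3 *hub1-2* values lay below the array median, so the size of its log2 fold change of -2.17 is uncertain (SE 0.36, limma adjusted p = 0.0044). AT3G43270 had 13.9, 16.9 and 15.8 in L*er*, just over the array median, and 7.63, 6.82 and 8.73 in *hub1-2*, all under it. Its log2 fold change was -1.01 (SE 0.14, limma adjusted p = 0.002). With 16 added to every intensity, AT3G43270 still fell, by 0.41, while AT5G51490 had -1.15 with an adjusted p of 0.013.

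AT2G47550 moved the other way. It had 153, 164 and 72.0 in L*er* and 474, 344 and 559 in *hub1-2*, with no overlap and a mean 3.54 times higher. The log2 fold change was 1.89 (SE 0.31, limma adjusted p = 0.0043).

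CyberT, the test named in the methods, called 7 of the 17 genes at the same threshold, where it called 17.0% of all probe sets. It added AT2G45220 and AT3G29090 to the 5 genes above. AT2G45220 had 763, 459 and 1147 in L*er* and 409, 512 and 367 in *hub1-2*. The groups overlapped, and the log2 fold change was -0.80 (SE 0.29, limma adjusted p = 0.079, CyberT adjusted p = 0.0072). AT3G29090, which encodes PME31, had 272, 277 and 225 in L*er* and 352, 448 and 431 in *hub1-2*. All 3 *hub1-2* values were the higher ones, and the log2 fold change was 0.67 (SE 0.14, limma adjusted p = 0.012, CyberT adjusted p = 0.0031). These 2 genes owe their names to the study's list of changed genes, so their calls are not independent evidence. The 15 other tested genes were named by the array's annotation, and limma called 5 of them in *hub1-2*.

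At an unadjusted p under 0.05, limma passed 10 of the 17 genes, beside 37.5% of all probe sets. The arrays of *hub1-2* and L*er* did not overlap for 10 of the 17, beside 43.0% of all. Among genes not called, and chosen after their values were seen, AT5G19730 had a log2 fold change of -0.42, AT5G53370 of -0.52 and AT5G09760 of -0.45 (limma adjusted p = 0.022, 0.055 and 0.085). The 7 tested genes that no test called and that are not among the lowest 3 ranged from 4.34 to 61.3 over the 12 arrays.

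AT3G60730 and AT2G36710 were called with each array of the comparison left out in turn. The count fell to 2 without *hub1-2* replicate 1, and to 3 without *hub1-2* replicate 2, *hub1-2* replicate 3 or L*er* replicate 1, where AT2G47550, AT5G51490 and AT3G43270 had adjusted p-values of up to 0.025, 0.02 and 0.011. Over all probe sets the calls fell too, from 1385 with all arrays to 550, 573, 398 and 800, in the same order. The summed intensity of the 4 named markers of the silique wall was 12344 to 14400 in *hub1-2* and 14446 to 16489 in L*er*. Most of that sum is *ADPG1*, with 10230 ± 1016 in *hub1-2* and 12952 ± 981 in L*er* (SD, n = 3). Of the 4 markers limma called 1, *ALC*, which specifies the separation layer of the pod and fell by 1.17 (limma adjusted p = 0.0022). *SHP2* and *ADPG1* had log2 fold changes of -0.79 and -0.34, and *PGAZAT* had 0.32, the opposite direction (limma adjusted p = 0.012, 0.019 and 0.055). The sum of the 4 named seed markers overlapped, at 97971 to 107387 against 96003 to 104294, and limma called 1 of them, *SESA1*, a seed storage albumin gene, lower by a log2 fold change of -0.20 (limma adjusted p = 0.0091). Over all probe sets limma called 3.92% lower. All 4 seed markers and 2 of the wall markers are named only through the study's list, so their values are not independent evidence. The part of these markers in the result was not tested.

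**Figure D2:**
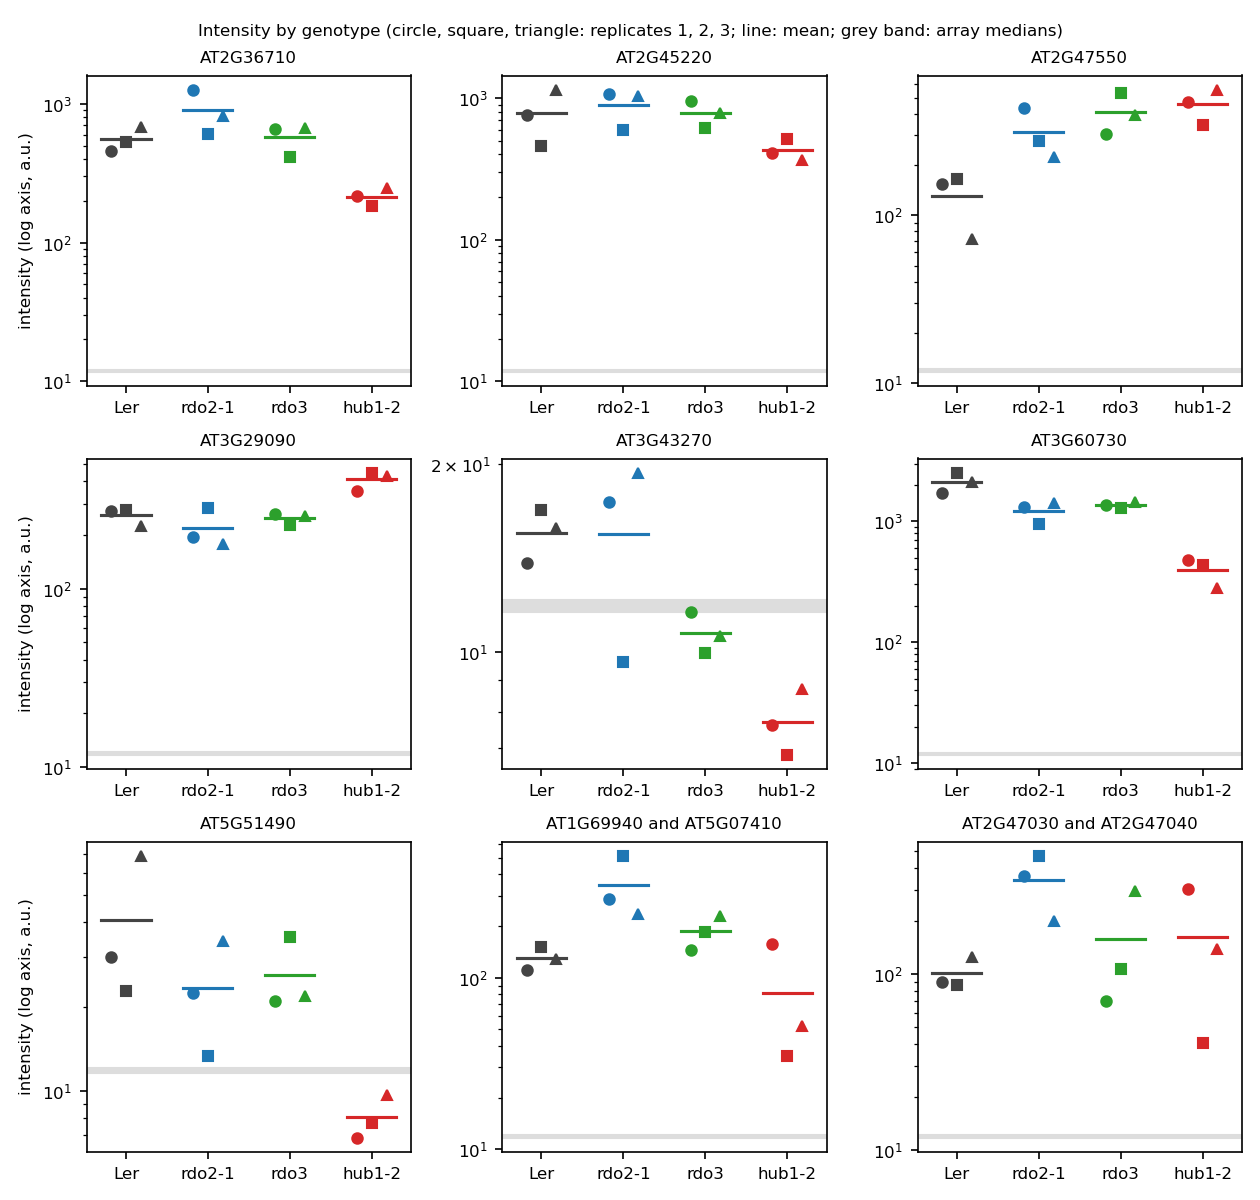
Intensity (arbitrary units, log axis) on each array for the 7 single-gene probe sets that limma or CyberT called in any comparison and the 2 probe sets shared by a pair of genes, by genotype, with replicates 1, 2 and 3 as circles, squares and triangles and the mean as a line. AT3G60730 is lowest on the 3 *hub1-2* arrays, at 283 to 475, and AT2G47550 is lowest on the 3 L*er* arrays, at 72.0 to 164.

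In *rdo2-1* siliques limma called none of the 17 genes, beside 0.143% of all probe sets. CyberT called AT2G47550 higher and AT3G60730 lower, beside 3.40% of all. AT2G47550 had 436, 276 and 222 in *rdo2-1*, above all 3 L*er* values. Its log2 fold change was 1.30 (SE 0.34, limma adjusted p = 0.075, CyberT adjusted p = 0.0077). AT3G60730 had 1299, 952 and 1405, below all 3 L*er* values. The log2 fold change was -0.80 (SE 0.18, limma adjusted p = 0.047, CyberT adjusted p = 0.0037). The summed silique wall markers were higher on all 3 *rdo2-1* arrays, at 18168 to 20619 against 14446 to 16489 in L*er*, and so were the summed seed markers, at 118594 to 118800.2 against 96003 to 104294. Of the 4 genes in each list limma called none, and CyberT called 1 and 2 higher, beside 3.40% of all in either direction. The called markers are named only through the study's list of changed genes, so their calls are not independent evidence. The part of these markers in the results for *rdo2-1* was not tested.

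Of the 17 genes, 6 had an unadjusted p under 0.05 in limma, beside 21.4% of all probe sets. The arrays of *rdo2-1* and L*er* did not overlap for 4 of them, beside 26.0% of all. The median log2 fold change was -0.06, beside -0.01 over all. The other genes called in *hub1-2* had values on both sides of 0. AT2G36710 had 1266, 606 and 816 in *rdo2-1*, and its log2 fold change was 0.64 (95% interval 0.06 to 1.21, limma adjusted p = 0.19). AT5G51490 had 22.3, 13.4 and 34.2, with -0.73 (95% interval -1.70 to 0.24, limma adjusted p = 0.36). AT3G43270 had 17.4, 9.62 and 19.4, with -0.06 (95% interval -0.64 to 0.52, limma adjusted p = 0.91). Replicate 2 was the low array for both of the last genes.

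A single array decided 1 call here. AT3G05610, chosen after its values were seen, had 16.6, 17.0 and 7.2 in *rdo2-1* and 7.35, 5.6 and 7.16 in L*er*. Without *rdo2-1* replicate 3, limma called it as the 1 member above the threshold, beside 69 of all probe sets (21 with all arrays). With all arrays the log2 fold change was 0.93 (SE 0.30, limma adjusted p = 0.12). AT2G26450, among the genes of lowest intensity, had 13.6, 11.4 and 7.65 in *rdo2-1* and 7.02, 5.47 and 6.33 in L*er*. Its groups did not overlap, though only 1 of its 12 values lay above its array median, and the log2 fold change of 0.76 did not pass (SE 0.21, limma adjusted p = 0.081).

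In *rdo3* siliques limma called none of the 17 genes, beside 0.0205% of all probe sets. CyberT called 2, beside 1.01% of all, and they were again AT2G47550, higher, and AT3G60730, lower. AT2G47550 had 305, 534 and 393 in *rdo3*, a mean 3.17 times that of L*er*. The log2 fold change was 1.72 (SE 0.33, limma adjusted p = 0.091, CyberT adjusted p = 0.00085). AT3G60730 had 1369.9, 1286 and 1448, again below every L*er* array. Its log2 fold change was -0.61 (SE 0.14, limma adjusted p = 0.14, CyberT adjusted p = 0.0091). AT3G43270 had 11.6, 9.94 and 10.6, below the 3 L*er* values, with a log2 fold change of -0.53 (SE 0.14, limma adjusted p = 0.20). The summed wall and seed markers of *rdo3*, at 15128 to 16266 and 103526 to 107835, overlapped those of L*er*.

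At an unadjusted p under 0.05, limma passed 6 of the 17 genes in *rdo3*, beside 10.5% of all probe sets, and the groups did not overlap for 5, beside 16.6% of all. The median log2 fold change was 0.04, beside -0.01 over all. AT2G36710, at 654, 413 and 670.2, and AT2G45220, at 946, 617 and 787, overlapped L*er* and had log2 fold changes of 0.04 (95% interval -0.46 to 0.53) and 0.06 (95% interval -0.63 to 0.75). AT3G29090, at 261, 229 and 255, had -0.05 (95% interval -0.38 to 0.27). AT5G51490 had 21.0, 35.3 and 21.8, with -0.51 (95% interval -1.42 to 0.39).

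AT2G47550 was thus lowest, and AT3G60730 highest, on the 3 L*er* arrays among all 12. The mean of AT2G47550 was 129.6 ± 50.1 in L*er*, 311 ± 111 in *rdo2-1*, 411 ± 115 in *rdo3* and 459 ± 108 in *hub1-2* (SD, n = 3), and the values of the mutants overlap. The mean of AT3G60730 was 2117 ± 398 in L*er*, 1368 ± 80.8 in *rdo3* and 1219 ± 237 in *rdo2-1* (SD, n = 3), and 397 in *hub1-2*, with values of 283 to 475. The *rdo3* and *rdo2-1* values overlap, and those of *hub1-2* lie below all others. The 3 comparisons share the same L*er* arrays, so their fold changes are not independent of each other.

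The direct comparison of *hub1-2* with *rdo2-1* tests whether the mutants differ and does not use the L*er* arrays. In it 4 of the 17 genes were lower in *hub1-2*, AT3G60730, AT2G36710, AT5G51490 and AT2G45220, and 1 was higher, AT3G29090. Over all probe sets 19.6% were called, 11.9% higher and 7.64% lower. The median log2 fold change was -0.39, beside 0.02 over all, and 12 of the 17 values were below 0. The median size of the change was 0.59, beside 0.35 over all.

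AT2G36710 differed most among the genes called, at 183 to 246 in *hub1-2* and 606 to 1266 in *rdo2-1*. The means were 4.17 times apart and the log2 fold change was -2.0 (SE 0.24, limma adjusted p = 0.00052). For AT3G60730 the log2 fold change was -1.63 (SE 0.21, limma adjusted p = 0.00071). AT5G51490 had -1.44 (SE 0.30, limma adjusted p = 0.006), from values of 13.4 to 34.2 in *rdo2-1* to values below the array median. It was not called with 16 added to every intensity (log2 fold change -0.68, limma adjusted p = 0.011) or in 1 fit over the 12 arrays (limma adjusted p = 0.012). For each of these 3 genes no *hub1-2* array reached the lowest *rdo2-1* array.

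AT2G45220 had 1076, 592 and 1033 in *rdo2-1*, all above the 367 to 512 of *hub1-2*. The log2 fold change was -1.03 (SE 0.23, limma adjusted p = 0.0077). That call was lost with no intensity trend (adjusted p = 0.014) and in 1 fit over the 12 arrays (adjusted p = 0.016). AT3G29090 had 194, 284 and 178 in *rdo2-1*, all below the 352 to 448 of *hub1-2*, and the log2 fold change was 0.93 (SE 0.19, limma adjusted p = 0.0059). Of the 15 genes named by the annotation, limma called 3 here. CyberT called 6 of the 17, beside 26.9% of all, adding AT3G43270 (log2 fold change -0.95, SE 0.25, limma adjusted p = 0.016, CyberT adjusted p = 0.0013).

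An unadjusted p under 0.05 was reached by 10 of the 17 genes, beside 47.6% of all probe sets. The groups did not overlap for 9, beside 52.4% of all. AT2G47550, which was high in both mutants, had a log2 fold change of 0.59 between them (95% interval 0.01 to 1.17, limma adjusted p = 0.099). Without any 1 of the 3 *hub1-2* arrays, or without *rdo2-1* replicate 1, limma called 2 genes, AT2G36710 and AT3G60730, and the other 3 had adjusted p-values of up to 0.036. Over all probe sets the calls there were 1521, 1243, 1122 and 1615, beside 2867 with all arrays. Without *rdo2-1* replicate 3, AT2G45220 and AT3G29090 were not called. With each array centred on its median, AT3G29090 was not called (adjusted p = 0.012) and AT3G43270 was. The summed silique wall markers were 12344 to 14400 in *hub1-2* and 18168 to 20619 in *rdo2-1*, and limma called 3 of the 4 lower. The 4 seed markers summed to 97971 to 107387 and to 118594 to 118800.2, with 3 called lower. Over all probe sets 7.64% were called lower. All 4 seed markers and 2 of the wall markers are named only through the study's list, so their calls are not independent evidence. The part of either list in these results was not tested.

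**Figure D3:**
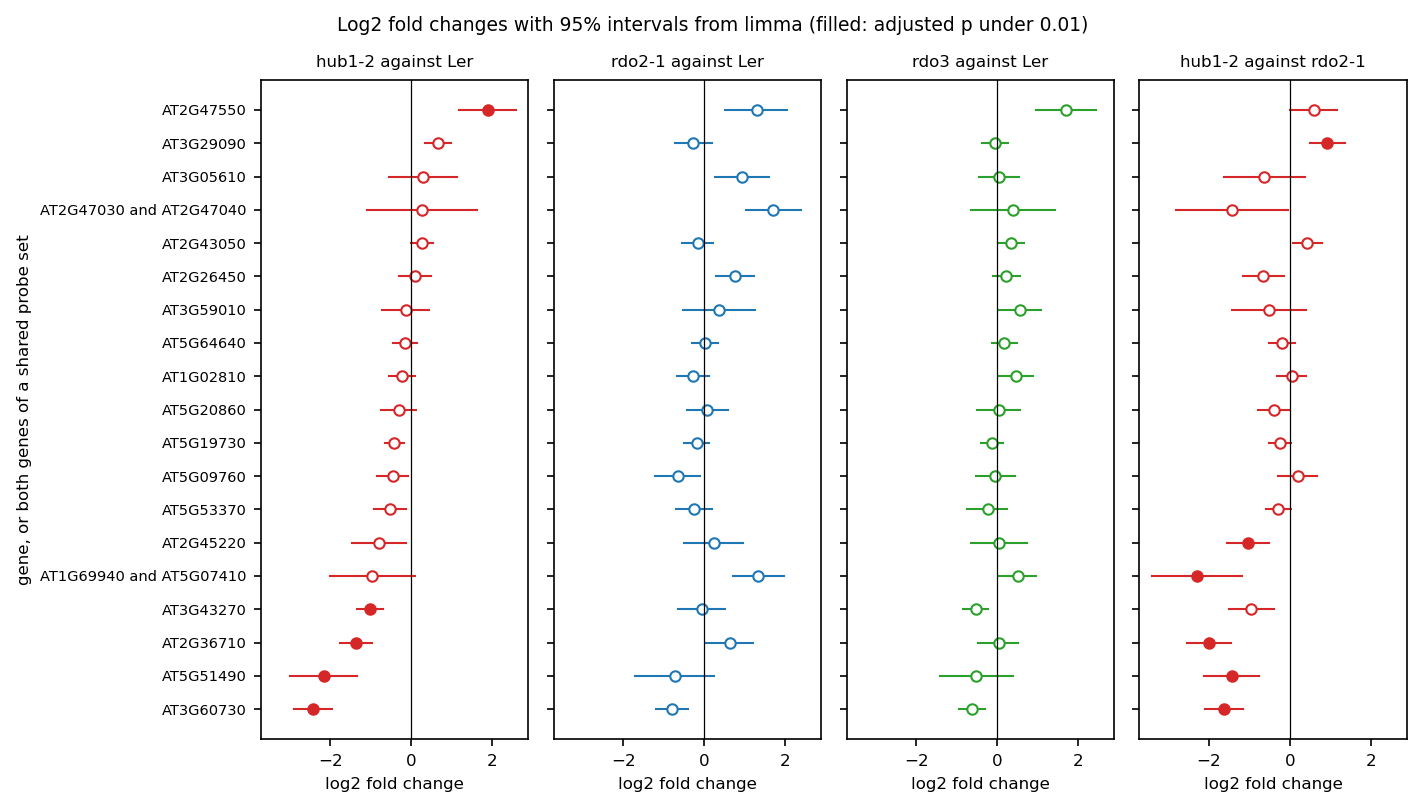
Log2 fold change (horizontal axis, same scale in all panels) with its 95% interval from limma for the 17 tested genes and the 2 probe sets shared by a pair of genes, in the 4 comparisons. Filled points passed an adjusted p under 0.01. AT3G60730 and AT2G36710 lie at -2.43 and -1.37 in *hub1-2* against L*er*, and at -1.63 and -2.0 against *rdo2-1*.

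Some of the pollen members of the family were read through 2 shared probe sets. A first one stands for AT1G69940, the pollen pectin methylesterase *PPME1*, together with its relative AT5G07410. A second stands for AT2G47030 and AT2G47040, the latter known as *VANGUARD1*, which pollen tubes need to grow through the style. The level of either gene of a pair alone is uncertain.

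Both shared probe sets had their highest mean in *rdo2-1*. The *PPME1* probe set had 110.3, 152 and 128 in L*er* and 289, 515 and 234 in *rdo2-1*, with no overlap. Its log2 fold change was 1.34 (SE 0.28, limma adjusted p = 0.039, CyberT adjusted p = 0.0042). The *VANGUARD1* probe set had 90.5, 86.1 and 125 in L*er* and 363, 471 and 199 in *rdo2-1*, again apart. Its log2 fold change was 1.71 (SE 0.30, limma adjusted p = 0.027, CyberT adjusted p = 0.00052). Neither passed limma at 0.01 with all arrays. Without *rdo2-1* replicate 3, the *VANGUARD1* probe set did (log2 fold change 2.06, limma adjusted p = 0.005).

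In *hub1-2* the arrays scattered widely for both probe sets, and in *rdo3* for the *VANGUARD1* probe set. In *rdo3* the *PPME1* probe set had 146, 186 and 228, and the *VANGUARD1* probe set had 70.3, 107 and 295. The *PPME1* probe set had 157, 35.2 and 52.4 in *hub1-2*, and the *VANGUARD1* probe set had 305, 40.5 and 138, with replicate 1 highest in both. Against L*er* the log2 fold changes were -0.96 (SE 0.46) and 0.27 (SE 0.60), with limma adjusted p-values of 0.17 and 0.78. In *rdo3* they were 0.51 (SE 0.20) and 0.39 (SE 0.46), with adjusted p-values of 0.43 and 0.81. Between the mutants, the *PPME1* probe set was lower in *hub1-2* than in *rdo2-1*, by a log2 fold change of -2.30 (SE 0.49, limma adjusted p = 0.0067). That call was lost without *hub1-2* replicate 2 or 3, or *rdo2-1* replicate 1 or 2, with adjusted p-values of up to 0.031, and with no intensity trend (adjusted p = 0.011). The *VANGUARD1* probe set had -1.44 (SE 0.62, limma adjusted p = 0.094).

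Other genes of pollen had values in the same direction in *rdo2-1*. Of 9 tested pollen markers, limma called none, while CyberT called 5 higher and 1 lower, beside 3.40% of all probe sets in either direction. An unadjusted p under 0.05 was reached by 6 of the 9, beside 21.4% of all. The median log2 fold change was 0.79, beside -0.01 over all probe sets. Of these 9, 6 are named only through the study's list of changed genes, so the counts are not independent evidence. *AGP6*, an arabinogalactan protein gene of pollen, had 41.3 ± 25.5 in *rdo2-1* and 9.79 ± 0.537 in L*er* (SD, n = 3). *AGP11*, its close relative, had 99.8 ± 44.3 and 28.0 ± 1.52. *GEX1*, a gamete gene, had 138 ± 35.3 and 341 ± 50.2, the opposite direction. The summed intensity of the 14 named markers overlapped, at 795 to 1299 in *rdo2-1*, 829 to 948 in L*er*, 836 to 1023 in *rdo3* and 654 to 1079 in *hub1-2*. The part of pollen or of its remains in these values was not tested.

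Genes of proteins that act with pectin methylesterases were read from 6 further lists. The inhibitors, which block the enzymes in the wall, had 13 tested genes of 40 listed. In *hub1-2* against L*er* limma called 2 higher and 3 lower, beside 5.53% and 3.92% of all probe sets. CyberT called 3 and 3, beside 17.0% of all in either direction. The median log2 fold change was 0.30, beside 0.02 over all. AT1G62770 rose from 6.28 ± 0.735 to 18.9 ± 2.37 (SD, n = 3; log2 fold change 1.59, SE 0.15, limma adjusted p = 0.0003), and AT5G62350 by 1.14 (SE 0.16, limma adjusted p = 0.0022). Both started from L*er* means below the array median, 6.28 and 8.06, so the size of these rises is uncertain. AT3G62820 fell from 59.0 ± 1.86 to 14.3 ± 2.1 (log2 fold change -2.06, SE 0.16, limma adjusted p = 0.00015), AT3G17130 by 1.16 (SE 0.15, limma adjusted p = 0.0014) and AT2G01610 by 0.61 (SE 0.10, limma adjusted p = 0.0047). AT2G01610 was the most intense of the 5 in L*er*, at 2371 ± 198 (SD, n = 3).

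Against *rdo2-1* limma called 3 inhibitor genes higher and 2 lower in *hub1-2*, beside 11.9% and 7.64% of all. CyberT called 3 and 4, beside 26.9% of all in either direction. The limma calls were the same genes as against L*er* except that AT3G17130 was not called and AT1G14890 was, with a log2 fold change of 1.06 (SE 0.24, limma adjusted p = 0.0089). The *rdo2-1* mean of AT1G14890, 8.27, lay below the array median, so the size of its change is uncertain. AT3G62820 differed most, at -2.81 (SE 0.24, limma adjusted p = 0.0001). In *rdo2-1* against L*er* limma called no inhibitor gene at the threshold and 9 of the 13 without adjustment at 0.05, beside 21.4% of all. CyberT called 4 higher, beside 3.40% of all in either direction. The greatest log2 fold changes among them were 2.40 for AT2G47050, 1.79 for AT1G10770 and 1.47 for AT5G50030 (limma adjusted p = 0.032, 0.043 and 0.068). These 3 genes spread widely in *rdo2-1*, at 241 ± 148, 178 ± 116 and 93.8 ± 49.8 (SD, n = 3). Whether they vary with the pollen markers was not tested. The list median was 0.56, beside -0.01. In *rdo3* neither test called an inhibitor gene, and 2 of the 13 had an unadjusted p under 0.05, beside 10.5% of all.

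Polygalacturonases, which cut the chain once its methyl groups are gone, had 17 tested genes of 58 listed. In *hub1-2* against L*er* limma called 3 higher and none lower, beside 5.53% and 3.92% of all. CyberT called 3 higher and 2 lower, beside 17.0% of all in either direction. The 2 lower were *ADPG1* and AT2G43880, with log2 fold changes of -0.34 and -0.79 (limma adjusted p = 0.019 and 0.026, CyberT adjusted p = 0.0019 for both). AT2G43880 had means of 7.07 in L*er* and 4.05 in *hub1-2*, both below the array median, so the size of its fall is uncertain. AT1G23460 rose by 1.85 (SE 0.23, limma adjusted p = 0.0012) and AT2G43870 by 1.41 (SE 0.16, limma adjusted p = 0.0008). *QRT2* (AT3G07970), known for the separation of pollen grains from their tetrads, rose by 1.5 (SE 0.30, limma adjusted p = 0.0087). The list median was 0.08, beside 0.02 over all. Against *rdo2-1*, AT1G23460 and AT2G43870 were higher, by 2.69 (SE 0.23) and 1.29 (SE 0.13), with limma adjusted p-values of 0.00012 and 0.00025. The *rdo2-1* mean of AT1G23460, 9.56, lay below the array median, so the size of that change is uncertain. *ADPG1* (AT3G57510), a polygalacturonase needed for pod opening, was lower in *hub1-2*, with a log2 fold change of -0.60 (SE 0.08, limma adjusted p = 0.00071). By CyberT, 2 genes of the list were higher there and 4 lower, beside 26.9% of all in either direction. In *rdo2-1* against L*er* limma called none at the threshold and 9 of the 17 without adjustment at 0.05, beside 21.4% of all. CyberT called 5 higher, beside 3.40% of all in either direction, with 2.14 for AT3G07820 (limma adjusted p = 0.014) as the highest value. In *rdo3* neither test called one, and 5 had an unadjusted p under 0.05, beside 10.5% of all. Of the 17 genes, 3 are named only through the study's list, *PGAZAT*, *QRT2* and *PGA4*. CyberT called all 3 higher in *rdo2-1*, and *QRT2* is among the rises called in *hub1-2*. These counts are therefore not independent evidence.

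Pectate lyases, which cut the same chain by another reaction, had 7 tested genes of 26 listed, and limma called none in the 4 comparisons. CyberT called 4 higher in *rdo2-1* against L*er*, beside 3.40% of all in either direction. Their log2 fold changes were 0.82 to 1.85 (limma adjusted p between 0.043 and 0.075). In *hub1-2* against *rdo2-1* CyberT called 1 lower, beside 26.9% of all in either direction. Unadjusted limma p-values under 0.05 were reached by 4 of the 7 in *rdo2-1* and by 1 each in *hub1-2* and *rdo3* against L*er*, and by 2 between *hub1-2* and *rdo2-1*. Over all probe sets the shares were 21.4%, 37.5%, 10.5% and 47.6%, in the same order. Pectin acetylesterases, which remove acetyl groups, had 4 tested genes of 12. AT4G19410 was lower in *hub1-2* than in L*er*, with a log2 fold change of -0.60 (SE 0.11, limma adjusted p = 0.0076), and than in *rdo2-1*, with -0.72 (SE 0.10, limma adjusted p = 0.00099). That gene is named only through the study's list of changed genes, so its calls are not independent evidence. AT1G57590 was higher in *hub1-2* than in *rdo2-1*, with 1.29 (SE 0.25, limma adjusted p = 0.004). Against L*er*, at 171 ± 71.2, it had 53.1 ± 5.37 in *rdo2-1*, 53.5 ± 23.4 in *rdo3* and 135 ± 46.9 in *hub1-2* (SD, n = 3). CyberT called it lower in *rdo2-1* and *rdo3*, with log2 fold changes of -1.61 and -1.70 (CyberT adjusted p = 0.00082 and 0.0037, limma adjusted p = 0.027 and 0.16), and *hub1-2* had -0.31 (limma adjusted p = 0.53).

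The synthesis and methylation of homogalacturonan could be followed in 2 tested genes of 19 listed, and seed coat mucilage in 2 of 14. limma called none of them in the 4 comparisons, where 0 to 1 and 1 to 2 of them had an unadjusted p under 0.05, beside 10.5% to 47.6% of all probe sets. Of the mucilage genes, *ARA12*, a subtilase gene whose loss is known to alter mucilage release, had a log2 fold change of 0.72 in *hub1-2* (SE 0.19, limma adjusted p = 0.026, CyberT adjusted p = 0.0057). *TTG2*, a transcription factor gene of the seed coat, had -1.0 in *hub1-2* (SE 0.23, limma adjusted p = 0.015, CyberT adjusted p = 0.0003) and -0.91 in *rdo2-1* (SE 0.23, limma adjusted p = 0.066, CyberT adjusted p = 0.0058). Its means were 13.3 in L*er*, and 6.44 in *hub1-2* and 6.88 in *rdo2-1*, below the array median, so these sizes are uncertain. *TTG2* is named only through the study's list of changed genes, so its CyberT calls are not independent evidence.

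**Figure D4:**
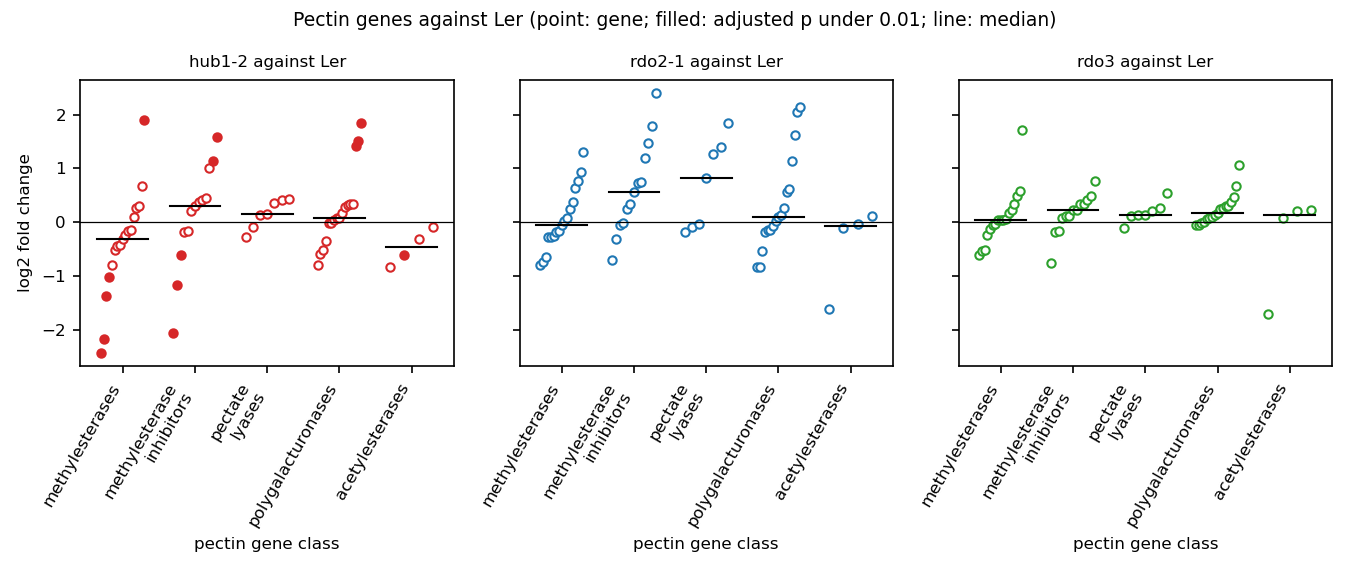
Log2 fold change against L*er* (vertical axis) of each tested gene (point) in 5 classes of pectin genes, with filled points at a limma adjusted p under 0.01 and a line at the class median, for *hub1-2*, *rdo2-1* and *rdo3*. The medians of the methylesterases are -0.31, -0.06 and 0.04, and those of their inhibitors 0.30, 0.56 and 0.22.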

How the data were processed

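Siliques of 4 genotypes were measured on 12 arrays. The authors' deposited intensities are linear GC-RMA values of 22810 probe sets from Expressionist Pro, after background correction, normalization and probe summarization. Which arrays were normalized together, and the annotation version, are not given in the sources used here. GC-RMA pools probes per probe set, so related transcripts can share signal.

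Groups follow the genotypes that the labels give, and no column was left unused. The 64 control probe sets were dropped. As no detection p was used, probe sets were ranked by second-highest intensity over the 9 arrays without *rdo3*, and as many were kept as the study's own detection filter had left. log2 values with no pseudocount were fitted in limma 3.58.1 (R 4.3.3) with an intensity trend over the 6 arrays of each comparison, two-sided, with Benjamini-Hochberg adjustment over all kept probe sets and calls under 0.01. CyberT, the study's test, was run with a prior weight of 10. The fit was tested on simulated data. With 3 arrays against 3, an exact permutation test cannot go below p = 0.1, and the number of arrays limits the precision. No 2 arrays held identical values.

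Probe sets took the name of a gene if the annotation lists a single one (13436) or through the study's list of changed genes (1133 more), which give the same code for 1374 of the 1381 probe sets that both name. Neighbouring genes come from the order of genes in RefSeq. The members and lists were chosen with earlier results of these data known. The genes named are the members that either test called, the 3 highest and 3 lowest tested members, and, per list, up to 3 called rises and 3 called falls with the greatest change. Exceptions are *HUB1*, the genes nearest to the filter, the neighbours of tested members, cell type markers and genes said to be chosen after their values were seen. Replicate numbers were not used to pair the samples in the main fits, and whether they pair them is uncertain. Filters, pseudocount, scaling, prior, fit, test, threshold, replicate block and left-out arrays were tried as alternatives. Names were joined in Python 3.11.15 with pandas 2.3.3, and plots were drawn with matplotlib 3.10.9.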

Additional observations from a re-analysis of the deposited data

Results flagged for a closer look

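For 5 of the 17 tested genes the change against L*er* differed between *hub1-2* and *rdo2-1* by the direct test of the mutants (limma adjusted p under 0.01). Over all probe sets 19.6% were called. Of the 15 genes named by the array's annotation 3 were called, a share near that over all. The other called genes, AT2G45220 and AT3G29090, are named only through the study's list of changed genes, so their calls are not independent evidence. The log2 fold change in *hub1-2* minus that in *rdo2-1* was -2.0 for AT2G36710 and -1.63 for AT3G60730. It was -1.44 for AT5G51490, whose *hub1-2* values lie below the array median, -1.03 for AT2G45220 and 0.93 for AT3G29090. AT2G36710 had opposite signs against L*er*, -1.37 in *hub1-2* and 0.64 in *rdo2-1*, the latter with a limma adjusted p of 0.19. Groups of 3 arrays were not tested for outlying samples.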

How the results depend on the processing

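AT3G60730 and AT2G36710 were called in all 16 alternatives of both *hub1-2* comparisons, and no called value changed sign. With 1 array left out, limma called 2 to 7 genes in *hub1-2* against L*er*, 0 to 1 in *rdo2-1*, 0 to 0 in *rdo3* and 2 to 6 in *hub1-2* against *rdo2-1*. Over all probe sets it called 398 to 1395, 3 to 69, 0 to 0 and 1122 to 2976, in the same order. With all arrays these counts were 1385, 21, 3 and 2867. CyberT called 2 genes in *rdo2-1* and 2 in *rdo3* where limma called 0, and an adjusted p under 0.05 gave 1 in *rdo2-1*. Over all probe sets these settings called 498, 148 and 448. The cause of the difference between the tests was not tested. With 16 added, the log2 fold change of AT5G51490 went from -2.17 to -1.15 and from -1.44 to -0.68, and both calls were lost. AT3G43270 was below the filter that keeps 10000 probe sets. The count of genes above the array median, 8, was also 8 after quantile normalization. Of all probe sets, 810 were called higher and 575 lower in *hub1-2* against L*er*, 679 and 683 with centred arrays, and 692 and 624 after quantile normalization. Against *rdo2-1* the splits were 1747 and 1120, 1198 and 1596, and 1501 and 1224. The alternative for members with several probe sets was not run, since no member has several.

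The main fits did not pair the samples by replicate number. Same-numbered arrays did not deviate together in all pairs (correlations of -0.184 to 0.388 over the 4 comparisons). In *rdo2-1* against L*er*, however, replicates 2 and 3 correlated best with their own number (0.261 and 0.388). Whether the replicate numbers pair the samples is therefore uncertain. With the replicate number as a block, limma called 5 genes in *hub1-2* against L*er*, 1 in *rdo2-1* (AT2G47550), 0 in *rdo3* and 5 in *hub1-2* against *rdo2-1*, of which 4 are those called without it. There the block lost AT2G45220 (adjusted p = 0.011) and added AT3G43270. It also passed the probe set of AT1G69940 and AT5G07410 in *rdo2-1* (adjusted p = 0.008). Over all probe sets the block changed the counts from 1385 to 871, from 21 to 185, from 3 to 0 and from 2867 to 2838. Not every array correlated best with its own number.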
